A study of Rattus norvegicus with 25 samples.

Results

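The 7 endocannabinoid genes followed here were Cnr1, Napepld, Faah, Dagla, Daglb, Mgll and Abhd6, taken as every row of both deposited tables whose gene name matched one of them, ignoring case. The 7 names gave 8 of 26312 gene identifiers in each table, since Faah is held by 2 gene models and Daglb by a row spelled DAGLB. The rule used gene names alone.

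Endocannabinoids are lipids made on demand in the postsynaptic neuron that travel back across the synapse and act on CB1, the receptor encoded by Cnr1, to reduce transmitter release. The ligand 2-arachidonoylglycerol (2-AG) is made by the diacylglycerol lipases Dagla and Daglb and broken down mainly by the monoacylglycerol lipase Mgll and in part by Abhd6. The ligand anandamide can be made by the phospholipase D encoded by Napepld and is hydrolysed by the fatty acid amide hydrolase encoded by Faah. In the hippocampus and amygdala CB1 is most abundant on interneurons that express cholecystokinin (CCK), with lower amounts on glutamatergic terminals.

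All animals were wild-type adult male Sprague-Dawley rats, and tissue was taken 9 days after the stressor from punches of the left basolateral amygdala (BLA) and the left dorsal dentate gyrus (DG). Control rats were left in the home cage with a cage change while the others were stressed, and went through the same behavioral tests, while stress-exposed rats were also housed in another room for 2 nights after the stressor. Stress-exposed rats underwent 3 h of immobilization with predator scent and were chosen for sequencing from the low end (stress-low) or the high end (stress-high) of a composite score of anxiety-like behavior. The BLA gave 13 libraries (7 of control, 3 of stress-low and 3 of stress-high rats) and the DG gave 12 (6, 3 and 3), 1 animal each. After the study's methods, 1 control library per region that stood apart in a PCA was kept out of the fits (animal 2 in the BLA and animal 35 in the DG), which left 6 and 5 controls. The labels do not name the libraries that the study left out, so the control farthest on the first principal component was taken. The study describes 6 controls chosen for sequencing, fewer than the 7 BLA control libraries. It also left 1 control animal out of all analyses for an error during behavior testing. The labels do not tell whether a library of that animal is among those used here. Control animals also carried a low or high score label. The scores of controls spanned a narrower range than those of the stress-exposed animals, so that the same label does not stand for the same score. Animal 35 is a control by the name of its BLA library and stress-exposed by the treatment field, and was kept as a control.

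Total expected counts, which are the reads RSEM assigned to genes, were 12709493 to 22801247 per library in the BLA and 11656439 to 19477932 in the DG. The regional labels were checked against markers. Prox1 and C1ql2, markers of dentate granule cells, averaged 75.6 and 344 TPM (transcript abundance scaled to a common library total) in the DG and 2.52 and 2.78 TPM in the BLA, while Etv1, listed as a marker of the basolateral nuclei, averaged 107 TPM in the BLA and 9.76 TPM in the DG. Dsp, also of the granule cell list, was low in both regions (5.91 TPM in the DG and 0.205 TPM in the BLA), and Calb1, the last of its 4 genes, was higher in the BLA (134 against 106 TPM in the DG). Rspo2, the other marker of the basolateral list, did not set the regions apart, at 12.0 TPM in the BLA and 18.6 TPM in the DG. In bulk tissue, fewer cells of a type and less RNA per cell cannot be told apart.

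In the BLA the receptor was the most abundant member. Cnr1 averaged 122 TPM ± 14.6 (SD, n = 12), a level above that of 92.5% of the 15230 genes tested. Mgll (42.1 ± 4.81), Faah (38.6 ± 4.59), Abhd6 (37.4 ± 2.64) and Dagla (35.0 ± 3.30) followed, and neighbours in this order did not differ beyond their spread. Daglb stood lower at 17.1 ± 1.01, and Napepld was the lowest of the 7 genes at 8.06 ± 1.2.

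In the DG the order was different, with Dagla and Mgll above the receptor and the other 2-AG enzymes, Abhd6 and Daglb, below it. Dagla averaged 182 TPM ± 11.8 (SD, n = 11), above 93.7% of the 14080 genes tested, and its lowest library (164.52 TPM) lay above the highest Mgll library (136.32 TPM). Mgll followed at 116 ± 11.1, Cnr1 at 83.5 ± 8.25, Abhd6 at 72.8 ± 4.31 and Faah at 65.1 ± 7.23, and from Mgll to Faah each gene overlapped its neighbour in the order. Napepld (24.2 ± 1.78) and Daglb (19.9 ± 1.74) were lowest, and their ranges overlapped.

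**Figure D1:**
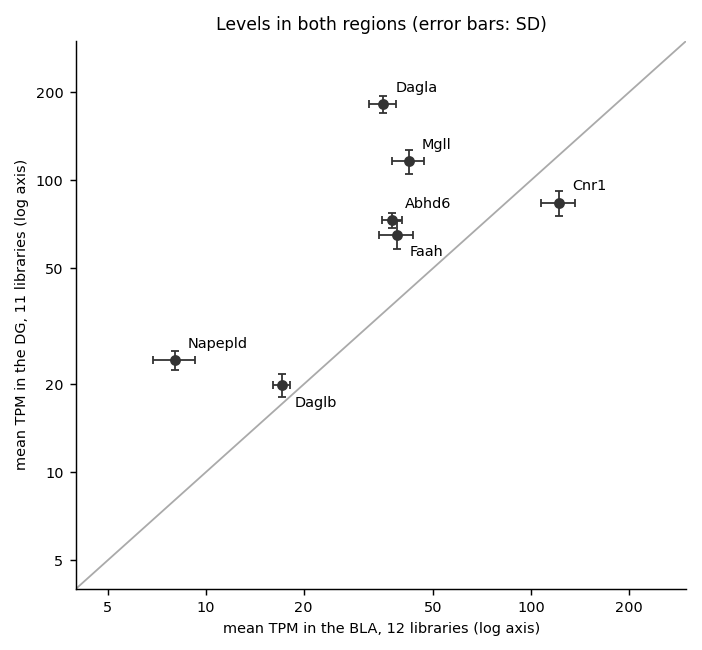
Mean TPM of the 7 genes in the BLA (horizontal axis) against the DG (vertical axis), both on log axes, with SD over 12 and 11 libraries as error bars and a grey line where both are equal. Dagla lies farthest above the line at 35.0 against 182 TPM, Daglb lies close to it, and Cnr1 is the one gene below it.

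Set side by side, Dagla differed most between the tables, at 5.19 times its BLA level in the DG. The DG value was 3.00 times the BLA value for Napepld, 2.76 times for Mgll, 1.95 times for Abhd6 and 1.69 times for Faah, and for these 5 genes the libraries of the 2 regions did not overlap. The Faah value is for the longer of its 2 gene models, and with both summed the ratio was 1.47 and the libraries overlapped (up to 54.80 TPM in the BLA and down to 49.65 TPM in the DG). Daglb was at 1.16 times its BLA level. Cnr1 went the other way at 0.683 times, with every DG library (71.09 to 99.67 TPM) below every BLA library (106.18 to 156.96 TPM). Among 9 animals with a used library in both regions, Dagla, Daglb, Mgll, Abhd6, Napepld and Faah were higher in the DG in 9 of 9 and Cnr1 in 0 of 9.

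No test of these differences in level was run across the tables, which were made separately. The deposited effective length was 50 bases shorter than the gene length in the BLA and 261 to 274 bases shorter in the DG, so that region and processing cannot be told apart in these ratios. A shorter effective length gives a higher TPM for the same count, and this weighs most on short genes. Napepld, the shortest member at 1191 bases, had an effective length of 1141 bases in the BLA and 917 to 930 bases in the DG. Its ratio, and its place above Mgll, are affected most. For comparison, the DG to BLA ratio had a median of 0.17 on the log2 scale over 13198 genes with a mean of at least 1 TPM in both regions, and 10% of them lay above 0.91. Dagla (2.38) lay above 98.8% of these genes, Napepld (1.58) above 96.9%, Mgll (1.46) above 96.3% and Abhd6 (0.96) above 90.8%, while Cnr1 (-0.55) lay above 13.1%.

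Ratios taken within a library do not depend on the total of either table, although the lengths used to form TPM still differ. The 2 diacylglycerol lipases stood at 2.04 ± 0.156 (Dagla over Daglb, mean ± SD, n = 12, range 1.84 to 2.38) in the BLA and at 9.22 ± 1.16 (n = 11, range 7.60 to 11.7) in the DG. Dagla, which makes 2-AG, was below Mgll, which breaks it down, in every BLA library (ratio 0.658 to 0.985) and above it in every DG library (1.36 to 1.98). Mgll over Abhd6 stood at 1.13 ± 0.115 (BLA) and 1.60 ± 0.163 (DG).

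**Figure D2:**
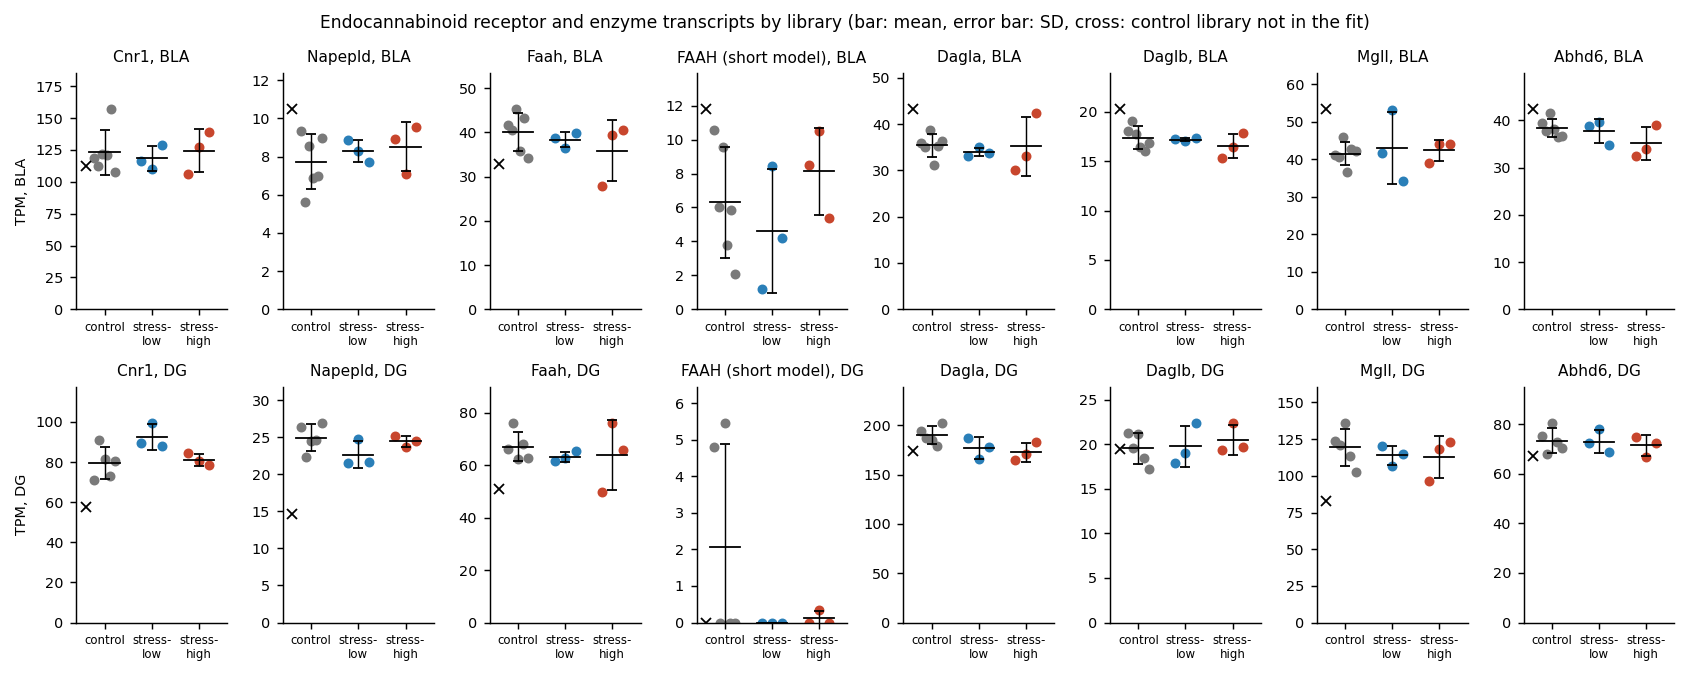
TPM of each gene model (one panel each, linear axis from 0) in every BLA library (upper row) and DG library (lower row), with points for animals by group, a horizontal bar for the group mean, SD as the error bar and a cross for the control library not in the fit. The groups overlap in nearly every panel, and for Cnr1 in the DG every stress-low point lies above the stress-high points.

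The study's comparisons asked whether stress exposure, and the behavior that followed it, went with a difference in transcript level. No member passed an adjusted p of 0.05 in any of the comparisons (edgeR quasi-likelihood test, Benjamini-Hochberg over all genes tested). All 8 models were tested in the BLA and 7 in the DG fit of 3 groups, where the short Faah model was too low, while the DG fit with controls split by score label and the joint fit of both regions tested all 8. Over all genes the same held in the 6 pairwise comparisons, with 0 of 15230 genes (0%) in the BLA and 0 of 14080 (0%) in the DG at an adjusted p under 0.05. With its own, different test the study did report small sets of genes in these comparisons, at a false discovery rate under 0.05. The counts of 0 therefore belong to the test used here.

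At an unadjusted p under 0.05, 0 of 8 BLA models were called between stress-low and stress-high, where 1.98% of all genes were, 0 of 8 between control and stress-low (2.75% of all genes) and 1 of 8, Abhd6, between control and stress-high (2.57%). In the DG the counts were 0 of 7 between stress-low and stress-high (3.12% of all genes), 1 of 7, Cnr1, between control and stress-low (6.90%) and 0 of 7 between control and stress-high (2.19%). Comparisons with the same controls share those libraries. With 42 tests in these 6 comparisons once the short Faah model is left aside, fold changes lay between -0.18 and 0.23 on the log2 scale with standard errors of 0.058 to 0.182. Every 95% interval lay between -0.39 and 0.49, which is 0.761-fold to 1.40-fold, so changes beyond these sizes were outside the interval of each gene in each comparison. The TPM of 2 groups did not overlap for 1 of 7 DG members, Cnr1, between stress-low and stress-high (8.69% of all genes), and for 0 of 7 between control and stress-low (3.71%) and control and stress-high (1.46%). In the BLA it was 0 of 8 models in each, against 5.89% of genes between stress-low and stress-high, 1.39% for controls against stress-low and 0.978% for controls against stress-high.

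**Figure D3:**
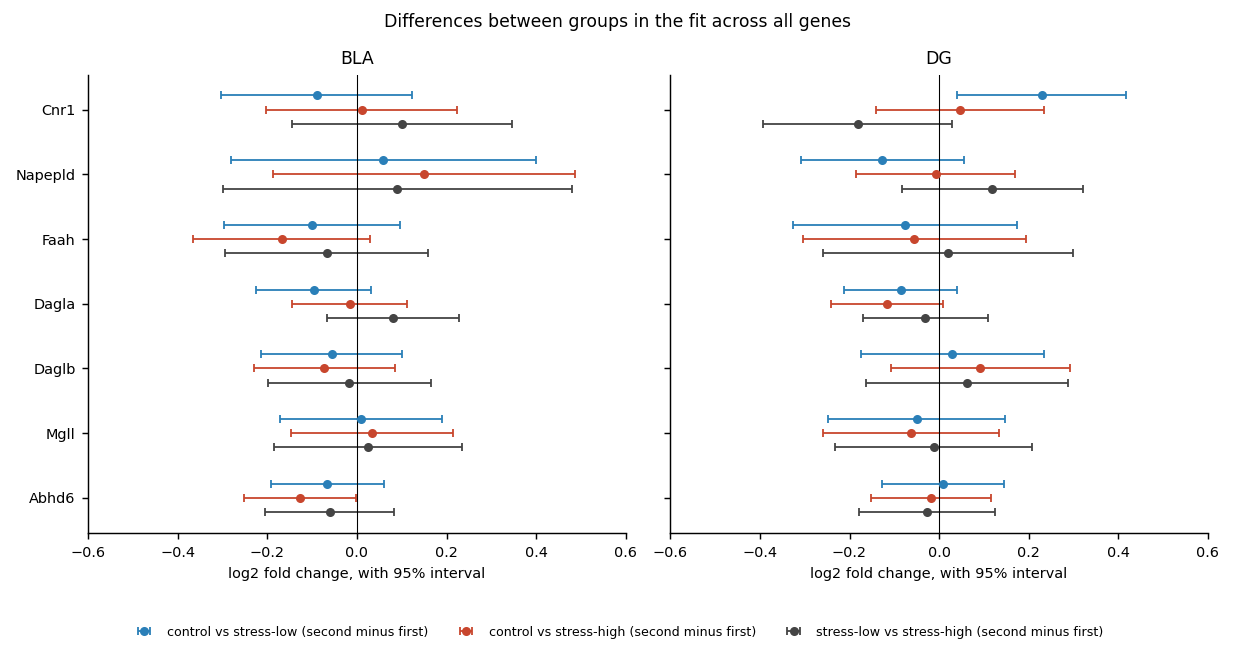
Log2 fold change (horizontal axis, second group minus first) with its 95% interval for 7 genes in the BLA (left) and the DG (right), from the edgeR fits, with colors for the 3 pairwise comparisons. Intervals include 0 except for Cnr1 in the DG between control and stress-low (0.23) and Abhd6 in the BLA between control and stress-high (-0.13), neither of which passed the adjusted threshold.

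Cnr1, the CB1 receptor gene, gave the 2 largest pairwise differences of the 7 members tested in the DG, neither past the adjusted threshold. The 5 control libraries held 71.09, 73.24, 80.49, 81.73 and 91.03 TPM. The 3 stress-low libraries held 87.81, 89.58 and 99.67 TPM and the 3 stress-high libraries 78.38, 80.64 and 84.24 TPM. Stress-low libraries were thus above all stress-high libraries and above 4 of 5 controls, while stress-high libraries lay within the control range.

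Between control and stress-low, the DG Cnr1 difference was 0.23 ± 0.09 on the log2 scale (SE, 95% interval 0.04 to 0.42, adjusted p = 0.718), and the exact two-sided permutation of TPM gave p = 0.0893 with a smallest possible p of 0.0179. Without stress-low animal 33, the highest of its group, the difference was 0.17 and its unadjusted p no longer under 0.05 (adjusted p = 0.982). Without control animal 14, the highest control, it was 0.31 (adjusted p = 0.176). From stress-low to stress-high it was -0.18 ± 0.10 (95% interval -0.39 to 0.03, adjusted p = 1.0). The TPM of these groups did not overlap, and the exact permutation p was 0.1, the smallest that 3 against 3 libraries can give. Between control and stress-high the difference was 0.05 ± 0.09 (exact permutation p = 0.786).

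In the BLA, Cnr1 ranged from 107.49 to 156.96 TPM in controls (median 120). The stress-low libraries held 109.82, 116.15 and 129.00 TPM and the stress-high libraries 106.18, 127.13 and 139.44 TPM. The 3 groups overlapped, and the log2 differences were -0.09 ± 0.10 from control to stress-low, 0.01 ± 0.10 from control to stress-high and 0.10 ± 0.11 from stress-low to stress-high (exact permutation p = 0.75, 0.952 and 0.7). Single libraries moved these values: from control to stress-low the difference was -0.0028 without stress-low animal 30, -0.02 without control animal 32 and -0.19 without stress-low animal 34. From stress-low to stress-high it was 0.01 without animal 30, 0.07 without stress-high animal 19 and 0.20 without animal 34. The highest value, 156.96 TPM, came from control animal 32, and the other 5 controls lay at 107.49 to 121.81 TPM. Of the used BLA libraries, animal 30 had the highest sum of GABA neuron markers (540.5 TPM) and the lowest of excitatory neuron markers (1690 TPM). Its striatal and central amygdala marker sum was 237 TPM, against 116.6 TPM in animal 34 and 89.67 TPM in animal 32. The part of tissue composition in these Cnr1 values was not tested.

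The control to stress-low difference of Cnr1 was compared between the regions in 1 fit with 6 region and group means, not paired by animal. It was 0.31 ± 0.14 higher in the DG (log2 scale, 95% interval 0.01 to 0.60, adjusted p = 1.0), in a comparison where 3.21% of 15453 genes had an unadjusted p under 0.05 and 0% an adjusted p under 0.05. With the animal as a block in limma it was 0.25, and with all mapped libraries 0.29, and in neither was the unadjusted p under 0.05. The other 6 genes gave region differences of -0.20 to 0.07 in that contrast. The stress-low groups of the regions were not the same animals. Animals 22 and 34 gave a library for each region, animal 33 for the DG alone and animal 30 for the BLA alone. Used controls were also only partly shared. The Cnr1 difference from control to stress-low was 0.17 in the DG without animal 33. Without animal 30 it was -0.0028 in the BLA. The part of these unshared animals in the region difference was not tested. For stress-low against stress-high (2.00% of all genes at an unadjusted p under 0.05), control against stress-high (1.84%) and control against stress-exposed (2.67%), 0 of 7 genes had an unadjusted p under 0.05, the short Faah model aside.

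Among the control libraries of the DG, Cnr1 was higher with the high score label by an amount that did not pass the adjusted threshold. The 2 low-score controls held 71.09 and 73.24 TPM and the 3 high-score controls 80.49, 81.73 and 91.03 TPM. The labels did not overlap for 1 of 8 models, Cnr1, and for 15.5% of all 14287 genes tested in the fit with controls split by label. The difference was 0.24 ± 0.09 on the log2 scale (adjusted p = 1.0), and 1 of 8 models, Cnr1, and 3.59% of genes had an unadjusted p under 0.05 while 1 of them (0.00700%), not a member, passed the adjusted threshold. The difference was 0.15 without control animal 14, 0.22 without animal 2 and 0.27 without animal 28, and in these 3 fits the unadjusted p was not under 0.05. In the BLA the low-score controls held 107.49, 121.19 and 121.81 TPM and the high-score controls 112.65, 118.50 and 156.96 TPM, which overlapped (0.12 ± 0.11, adjusted p = 0.997). There 0 of 8 models had an unadjusted p under 0.05, against 3.47% of genes, and 0 of 8 had groups that did not overlap, against 6.03%.

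Cnr1 in the DG thus stood higher with the high label among controls and lower with the high label among stress-exposed rats. The difference between these 2 score contrasts, a comparison added after the values were seen, was -0.43 ± 0.12 on the log2 scale (95% interval -0.69 to -0.16, adjusted p = 0.893). With each of the 11 libraries left out in turn it lay between -0.48 and -0.33. These values come from the libraries that prompted the comparison, so they describe the pattern and are no test of it. The labels also stand for other scores in controls than in stress-exposed rats. Of all genes, 4.95% had an unadjusted p under 0.05 in this comparison and 0.00700% an adjusted p under 0.05. Of the 8 models tested 1, Cnr1, had an unadjusted p under 0.05. In the BLA the same difference was -0.02 ± 0.16 for Cnr1 (adjusted p = 1.0), with 0 of 8 models and 2.29% of genes at an unadjusted p under 0.05.

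**Figure D4:**
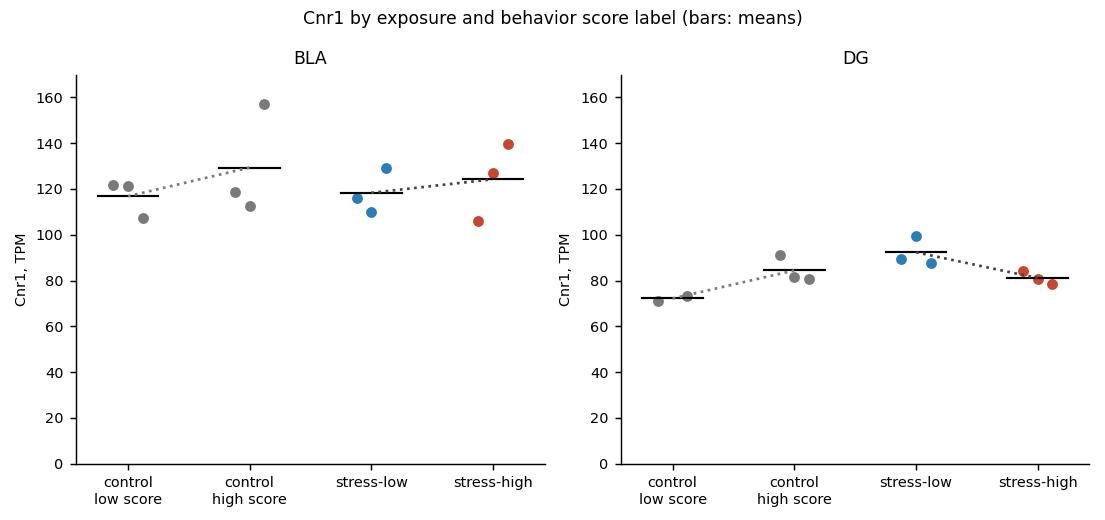
Cnr1 TPM (vertical axis from 0) in the BLA (left) and the DG (right) for controls with a low or high score label, stress-low and stress-high libraries, with points for animals, bars for means and dotted lines joining the means of the low and high labels. In the DG the control means run from 72.2 to 84.4 TPM and the stress-exposed means from 92.4 to 81.1 TPM, while in the BLA both lines run upward within overlapping points.

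Since CB1 is most abundant on CCK interneurons, their 4 listed markers (Cck, Slc17a8, Vip and Htr3a), all at a mean of at least 1 TPM, were summed in each library. Cck made up most of this sum, at a mean of 166 TPM in the DG and 555 TPM in the BLA. Slc17a8, Vip and Htr3a averaged 4.60, 4.48 and 3.05 TPM in the DG and 2.56, 24.05 and 7.25 TPM in the BLA. The sum therefore mainly follows Cck. Bulk tissue does not tell which cells the Cck reads came from, so the sum is no measure of CCK interneurons alone. In the BLA, Cck stood far above Gad1, a marker of GABA neurons at large (176.5 TPM). In the DG the sum was 146.9 to 218.7 TPM in controls, 131.7, 221.3 and 230.7 TPM in stress-low and 115.2, 181.8 and 182.8 TPM in stress-high libraries. The stress-low library with the highest Cnr1 (animal 33) had the lowest sum of its group, and 2 of 3 stress-low libraries exceeded all others used. The GABA markers Gad1, Gad2 and Slc32a1 summed to 299 to 302 TPM in stress-low, inside the 260.0 to 338 TPM of controls. Their part in the Cnr1 values was not tested. In the BLA the sum of the 4 listed markers, mostly Cck, was 511 to 746 TPM over the 12 libraries, of which control animal 32, the highest for Cnr1, had 556 TPM.

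Dagla, the main 2-AG synthase of adult neurons, was lower in the stress-exposed DG libraries by an amount that did not pass the test. Controls held 179.36, 185.23, 187.53, 194.64 and 202.90 TPM. The stress-low libraries held 165.55, 177.71 and 187.42 TPM and the stress-high libraries 164.52, 170.67 and 183.40 TPM. In each stress group 2 of 3 libraries lay below every control.

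The log2 difference of Dagla was -0.12 ± 0.06 from control to stress-high (exact permutation p = 0.0714), -0.09 ± 0.06 from control to stress-low (exact permutation p = 0.125) and -0.10 ± 0.05 from control to the mean of both stress groups (adjusted p = 0.931). In the last comparison 0 of 7 members, and 4.42% of genes, had an unadjusted p under 0.05, and under the 16 alternatives of the Dagla value 8 had one. Of the 18 alternatives of the control to stress-high value 6 had one. From control to stress-low the difference was -0.04 without stress-low animal 33 and -0.14 without stress-low animal 22. In the BLA Dagla held 31.08 to 38.69 TPM in controls, 33.21, 33.69 and 35.05 TPM in stress-low and 29.99, 33.18 and 42.40 TPM in stress-high libraries. These overlapped, with log2 differences of -0.10 from control to stress-low, -0.02 from control to stress-high and 0.08 from stress-low to stress-high. The Dagla to Daglb ratio in the DG was 9.79 ± 1.16 in controls, 9.03 ± 1.28 in stress-low and 8.47 ± 0.859 in stress-high libraries, and these overlapped too.

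Daglb, the second diacylglycerol lipase and the main one of microglia, had similar means in all groups. It had the lowest spread of the members in the BLA, with a coefficient of variation within groups of 6.04% where the median over all genes was 12.7%, while in the DG its 9.51% lay near the median of 10.5% and above that of Dagla, Abhd6, Napepld and Cnr1. BLA group means lay between 16.5 and 17.4 TPM and DG group means between 19.5 and 20.5 TPM. Its log2 differences in the pairwise comparisons lay between -0.07 and 0.09.

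Mgll, the main enzyme of 2-AG breakdown, had no difference beyond its spread in either region. In the BLA controls held 36.57 to 45.99 TPM, the stress-low libraries 34.20, 41.77 and 53.30 TPM and the stress-high libraries 39.08, 44.05 and 44.06 TPM. The stress-low library at 53.30 TPM (animal 30) also had the highest oligodendrocyte marker sum of the 12 libraries (6 of 6 markers detected, 4321 TPM against 2386 to 3332 TPM in the other 11) and a striatal and central amygdala marker sum of 237 TPM, where 10 of the other 11 had 89.7 to 131 TPM. The eleventh, control animal 35, had a sum of 249 TPM with 42.28 TPM of Mgll. The control library kept out of the fit had 53.39 TPM of Mgll with sums of 4057 and 425 TPM. Their part in the Mgll values was not tested. In the DG the means were 119 ± 12.5 in controls, 114 ± 6.58 in stress-low and 113 ± 14.3 TPM in stress-high libraries.

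Abhd6, a membrane lipase that hydrolyses part of the 2-AG in neurons, was the only BLA member with an unadjusted p under 0.05. Controls held 36.57 to 41.65 TPM (median 38.0), the stress-low libraries 34.78, 38.72 and 39.71 TPM and the stress-high libraries 32.52, 33.93 and 39.10 TPM. Of the stress-high libraries 2 of 3 lay below all 6 controls, and the third lay inside their range. The log2 difference was -0.13 ± 0.06 from control to stress-high (95% interval -0.25 to -0.0014, adjusted p = 1.0, exact permutation p = 0.119) and -0.10 ± 0.05 from control to both stress groups (adjusted p = 1.0), a comparison in which 0 of 8 models and 3.03% of genes had an unadjusted p under 0.05. Of the 19 alternative fits of the first difference, 2 had an unadjusted p under 0.05. In the DG its 3 pairwise differences lay between -0.03 and 0.01.

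Faah, the enzyme that ends anandamide signaling, is split over 2 gene models in these tables. The longer, Faah (ENSRNOG00000011019), is 3526 bases long and the shorter, FAAH (ENSRNOG00000045949), 1740 bases, and the RefSeq annotation of the newer assembly GRCr8 has 1 gene named Faah. The expected count of the shorter model was more than 0.02 from a whole number in 12 of 13 BLA and 3 of 12 DG libraries, while the counts of both added up to a whole number, within the same 0.02, in 11 of 13 and 12 of 12, the pattern that reads divided between them give. The shorter model took 1.45% to 14.9% of the summed counts in the BLA and 0% to 3.82% in the DG, where it was at 0 in 9 of 12 libraries. Values of either model alone are therefore uncertain.

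**Figure D5:**
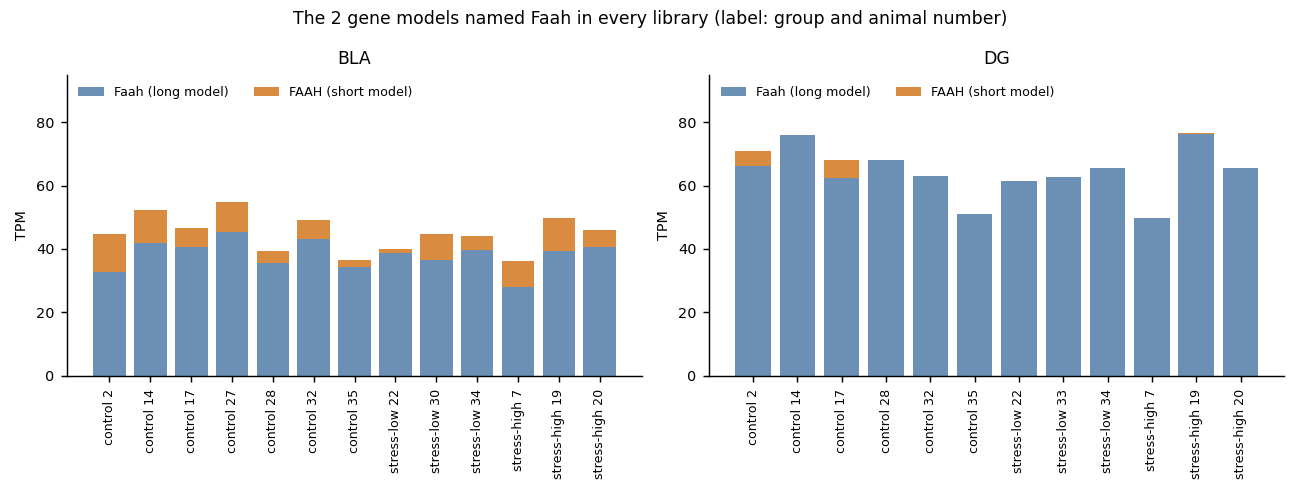
TPM (vertical axis from 0) of the longer Faah model (blue) and the shorter FAAH model (orange), stacked, in every BLA and DG library, labelled by group and animal number. The shorter model takes a varying part in the BLA and is visible in 2 DG libraries, the controls of animals 2 and 17.

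The shorter model varied most of all members. In the BLA it had a coefficient of variation within groups of 50.9%, above that of 96.0% of genes, and ranged from 1.17 to 10.55 TPM. In the DG it was at 4.81 and 5.47 TPM in the controls of animals 2 and 17 and at 0.34 TPM in stress-high animal 19. The other 8 used libraries were at 0, with no expected count, which allows up to 3 counts by counting error alone. The way reads were divided between the 2 models adds to this uncertainty. The difference between DG controls and stress groups rested on these 2 control libraries, and no fold change is given for it. By its own test, the study called FAAH as different in the DG when stress-low rats were set against controls. Its spelling of the name is that of the shorter model. In the used libraries of that contrast, reads of this model came from the controls of animals 2 and 17 alone. The DG fit of 3 groups left the shorter model out as too low, so it gives no test of that call. When control was compared with stress-low, stress-high and both between the regions, FAAH had an unadjusted p under 0.05 in each (adjusted p = 1.0 in each), and these rest on the same DG zeros.

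Summed over both models, Faah in the BLA was 36.36 to 54.80 TPM in controls, 39.91, 43.98 and 44.85 TPM in stress-low and 36.31, 45.83 and 49.87 TPM in stress-high libraries. In the DG it was 62.85 to 75.96 TPM in controls, 61.51, 62.67 and 65.40 TPM in stress-low and 49.65, 65.60 and 76.58 TPM in stress-high libraries. The groups overlapped in both regions. The longer model alone gave -0.17 ± 0.09 from control to stress-high in the BLA (exact permutation p = 0.298), -0.06 without stress-high animal 7 and -0.26 without stress-high animal 19, and the sum gave -0.11 ± 0.09 (exact permutation p = 0.595). In the DG no pairwise difference of the sum exceeded 0.10 in size (exact permutation p = 0.107 to 0.9). Stress-high animal 7 had the lowest Faah of the used libraries in both regions, at 36.31 and 49.65 TPM.

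Napepld, which can make anandamide, had the fewest reads of the 7 genes, at 55.0 to 163 expected counts per BLA library and 150.0 to 282 in the DG. In the BLA the group means were 7.73 ± 1.44, 8.29 ± 0.555 and 8.52 ± 1.29 TPM in the control, the stress-low and the stress-high group. DG controls held 22.27 to 26.97 TPM, the stress-low libraries 21.51, 21.61 and 24.73 TPM and the stress-high libraries 23.67, 24.53 and 25.12 TPM. The largest difference in the DG was -0.13 ± 0.08 from control to stress-low (exact permutation p = 0.125), and at this depth the BLA intervals reached 0.49.

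Levels of the same animal in the BLA and the DG were compared over 9 animals, 1 relation for each of 7 genes. Faah gave the highest Pearson r, 0.637 (exact permutation p = 0.0855, adjusted p = 0.598), with Spearman's rho = 0.233 (exact permutation p = 0.552, adjusted p = 0.678). Without the 2 animals farthest from the BLA median r was 0.00154, so that the relation rests on those animals. With both Faah models summed, a choice made after the values were seen, r was 0.776 (exact permutation p = 0.0111, adjusted p = 0.0777), rho was 0.633 (exact permutation p = 0.0760, adjusted p = 0.266) and r without the 2 farthest animals was 0.438. Dagla gave r = 0.440 (exact permutation p = 0.229, adjusted p = 0.605) and rho = 0.683 (exact permutation p = 0.0503, adjusted p = 0.352), with r = 0.566 without the 2 farthest. Cnr1 gave r = -0.303 (exact permutation p = 0.432, adjusted p = 0.605), and with all mapped libraries (11 animals) its direction turned, with r = 0.199 (permutation p = 0.543, adjusted p = 0.655). No group held 6 of these animals, so no value within a group is given.

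By similarity of scaled log2(TPM + 1) over the 12 BLA libraries, the 3 genes nearest to Cnr1 among 14116 were Rasa1, Gabra3 and Xkr4, with root mean square differences of 0.306, 0.384 and 0.400 where the median gene was at 1.27. Over the 11 DG libraries they were Gpcpd1, Mospd2 and Yaf2 (0.235, 0.289 and 0.332, median 1.51, among 13225 genes), so that none was shared by the regions. The nearest to the longer Faah model were Raph1, Mki67 and Osbpl1a in the BLA (0.388, 0.459 and 0.460, median 1.19). For the DG they were Tmem63c, Endog and Rpusd2 (0.424, 0.466 and 0.544, median 1.45). Mki67 averaged only 1.33 TPM, and these rankings were not tested against chance. Of the other members the nearest to Cnr1 were Faah in the BLA (0.884, rank 836) and Abhd6 in the DG (1.41, rank 5113), both nearer than the median gene.

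Of 22 other genes of the pathway (receptors, accessory proteins, further synthetic and hydrolytic enzymes and fatty acid carriers), 15 were tested in each region and 0 had an adjusted p under 0.05 in any comparison. Between stress-low and stress-high 0 of 15 had an unadjusted p under 0.05 in either region. In every comparison within a region 0 or 1 of the 15 had an unadjusted p under 0.05, where 1.98% to 6.90% of all genes did, so these counts lie near the share of all genes. The genes named next are those, and none passed the adjusted threshold. Sgip1, whose product slows internalization of CB1, was lower in BLA stress-low than in control libraries (-0.14 ± 0.06, adjusted p = 1.0). Fabp7, a fatty acid binding protein of astrocytes and progenitors that can carry anandamide, was lower in DG stress-high than in control libraries (-0.25 ± 0.09, adjusted p = 1.0) and in the mean of both stress groups (-0.20 ± 0.07, adjusted p = 0.931). Fabp5, another carrier, stood at 0.15 ± 0.07 (adjusted p = 1.0) in the BLA of stress-exposed animals. Ptgs2, a cyclooxygenase that also oxidizes endocannabinoids, was higher in high-score than in low-score DG controls (0.27 ± 0.10, adjusted p = 1.0). Median log2 changes of these 15 genes in the 6 pairwise comparisons lay between -0.03 and 0.02, where the medians of all genes tested lay between -0.004 and 0.001. Cnr2, the second cannabinoid receptor, gave -0.77 ± 0.34 between low-score and high-score BLA controls (adjusted p = 0.997) and averaged 0.554 TPM in the BLA and 0.335 TPM in the DG, against 122 and 83.5 TPM for Cnr1.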

How the data were processed

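RNA-seq of poly-A RNA was analysed from 13 BLA and 12 DG libraries. Per the submitters' processing notes the tools include STAR 2.6.0a and RSEM 1.3.1. The deposited tables hold expected counts per gene, which the authors obtained with RSEM, and TPM, transcript abundance scaled to a common total, also deposited by the authors. Both tables were deposited separately by region.

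The quasi-likelihood F-test of edgeR 4.0.16 (R 4.3.3) was run on rounded expected counts with TMM factors, genes kept by filterByExpr at 10 counts or more and 3 group means per region, with Benjamini-Hochberg adjustment over all genes tested. Control score labels were compared in a fit with the controls split, and regions in 1 joint fit of the contrasts. The study's own test for differential expression was not used here. TPM was compared by exact two-sided permutation tests over libraries. The control library farthest on the first principal component of log2(TPM + 1) was kept out of each region (46.4 against -17.3 to 12.5 in the BLA, 56.0 against -13.7 to 2.28 in the DG). Alternatives were DESeq2 1.42.0, limma 3.58.1 on log2(TPM + 1) and log2(TPM + 0.1), other normalization, no low-count filter, all mapped libraries, summed Faah models, a replicate block and leaving out each library. Scripts were tested on simulated data. Libraries of a group came from separate animals, so within a region p-values measure the spread between these animals. By the study's methods the rats were pair-housed and stressed in pairs, in several cohorts. The labels give neither cage nor cohort, so the fits do not account for animals that shared them. The joint fit of both regions did not pair the libraries of the same animal, and the animal was a block only in a limma alternative.

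The genes named are the 7 members, those of 22 other pathway genes with an unadjusted p under 0.05, the 3 genes most like Cnr1 and Faah, and markers. The members and lists were chosen with earlier results of these data known.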

Additional observations from a re-analysis of the deposited data

Results flagged for a closer look

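Cnr1 in BLA control animal 32 was 156.96 TPM, far above the other 5 controls by the ratio of its gap to the range of the group. Of 16 groups tested in this way it was the 1 that passed, and chance passes about 1 in 20 groups. The BLA control library kept out of the fits (animal 2) lay above all 6 controls used for 6 of the 8 gene models, with 42.37 TPM for Abhd6, 20.27 for DAGLB, 43.23 for Dagla, 11.79 for FAAH, 53.39 for Mgll and 10.48 for Napepld. Its Cnr1 and Faah values, 112.05 and 32.87 TPM, did not lie above them.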

How the results depend on the processing

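No member passed an adjusted p of 0.05 in 1595 tests under the alternatives, where the lowest adjusted p was 0.176. Of 417 alternative values of the 28 fold changes followed, 391 kept their direction and 26 changed sign. Those that changed sign were BLA stress-low against stress-high Faah (0.007 with summed models, -0.159 to 0.0413 with 1 library left out), BLA control against stress-high Cnr1 (-0.0237 to 0.0779 with 1 library left out), BLA control against stress-exposed Cnr1 (0.0051 with all mapped libraries, -0.0897 to 0.0277), BLA control score Cnr1 (-0.0111 to 0.2) and the BLA difference of score contrasts of Cnr1 (-0.11 to 0.112). In the DG they were stress-low against stress-high Faah (-0.0068 by limma on log2(TPM + 1) with or without a filter, -0.0072 with 0.1 added, -0.141 to 0.158 with 1 library left out), Dagla in the same comparison (-0.0816 to 0.0177), and Faah from control to stress-low (-0.111 to 0.0003) and to stress-high (-0.219 to 0.0816). The cause was not tested.

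Same-numbered stress libraries did not deviate together (BLA correlations 0.0393, -0.0398 and 0.00562, DG correlations -0.147, -0.185 and -0.079), so the numbers were not taken as a pairing. With the replicate block DG control against stress-low Cnr1 was 0.24 (adjusted p = 0.829), BLA Abhd6 from control to stress-high was -0.14 with an unadjusted p no longer under 0.05, and the sign changed for BLA control against stress-high Cnr1 (-0.0019), DG stress-low against stress-high Faah (-0.0107) and Dagla (0.004). The depth limits the short Faah model most (17.04 counts in its lowest BLA library and 0 in the DG), then Napepld at 55.0 counts.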

Other observations

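The DG control library kept out of the fits (animal 35) lay below all 5 controls used for Cnr1 (57.70 TPM), Faah (50.88), Mgll (83.03), Dagla (174.32), Napepld (14.70) and Abhd6 (67.22), while Daglb (19.46) lay inside their range.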
